A study of Homo sapiens with 12 samples.

Results

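TXNIP, its relatives of the arrestin-domain family ARRDC1, ARRDC2, ARRDC3 and ARRDC4, and the transcription factors MLX, MLXIP and MLXIPL were followed in RNA-Seq libraries of A549 cells, an established human lung adenocarcinoma line. These are 8 of the 58735 genes in the deposited count table, and all 8 were among the 17829 genes with enough counts to be fitted. They were taken by gene name. TXNIP was chosen by a measured value, namely how much its response to suspension differed between control and GFI1-expressing cells, so its own values are described here without a test. The other members were picked as its family and its regulators.

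The 12 libraries form 4 groups of 3, namely control A549 cells that stayed attached, GFI1-expressing A549 cells that stayed attached, control cells forced into suspension for 48 hours (floating), and GFI1-expressing cells forced into suspension for 48 hours. All groups were grown in RPMI1640 with fetal bovine serum. GFI1 is a hematopoietic transcriptional repressor that A549 cells do not normally use. It was introduced with a lentivirus that also carries GFP, and GFP-positive cells were sorted for sequencing, so each GFI1 group is a sorted pool with ectopic GFI1 and not a response of the endogenous gene. The labels do not say whether control cells carried an empty vector, so differences given below as with GFI1 may include those of transduction or sorting. They also do not say whether the 3 libraries of a group came from separate cultures, so the p values measure the spread between these libraries, which may be technical.

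TXNIP is an alpha-arrestin, a protein with the arrestin fold that acts as an adaptor. It binds reduced thioredoxin and helps to take the glucose transporter GLUT1 off the cell surface, and is known as one of the most glucose-responsive genes of mammalian cells. MLXIP (also called MondoA) and MLXIPL (also called ChREBP) sense sugar phosphates, pair with MLX, and bind carbohydrate response elements in the promoters of TXNIP and ARRDC4. ARRDC1 to ARRDC4 carry PPxY motifs that recruit ubiquitin ligases of the NEDD4 family, and ARRDC3 is known for the turnover of beta-adrenergic receptors and integrin beta-4.

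By the gene columns of the deposited table, which the labels place on hg38, TXNIP (ENSG00000265972) spans chr1:145992435-145996600 on the minus strand, ARRDC1 (ENSG00000197070) spans chr9:137605654-137615360 on the plus strand, ARRDC2 (ENSG00000105643) spans chr19:18001132-18014102 on the plus strand, and ARRDC3 (ENSG00000113369) spans chr5:91368724-91383359 on the minus strand. ARRDC4 (ENSG00000140450) spans chr15:97960698-97973838 on the plus strand, MLX (ENSG00000108788) spans chr17:42567068-42573239 on the plus strand, MLXIP (ENSG00000175727) spans chr12:122078722-122147347 on the plus strand, and MLXIPL (ENSG00000009950) spans chr7:73593194-73624543 on the minus strand. The table gives all 8 as protein-coding.

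The promoters of TXNIP and ARRDC4 are shown because these are the textbook target genes of the MLX factors. They are the 250 bases that end just before a RefSeq start site in GRCh38.p14, written 5′ to 3′ on the strand of the gene. The TXNIP window is chr1:145996580-145996829 on the minus strand, and the ARRDC4 window is chr15:97960453-97960702 on the plus strand. Capitals mark every match, on either strand, to 5 motifs. They were a carbohydrate response element of the TXNIP form (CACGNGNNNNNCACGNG), the E-box CACGTG, the CCAAT box CCAAT, the forkhead core GTAAACA and the GFI1 core AAATC. An E-box can make up either end of the first motif, so the first and the second can overlap.
TXNIP: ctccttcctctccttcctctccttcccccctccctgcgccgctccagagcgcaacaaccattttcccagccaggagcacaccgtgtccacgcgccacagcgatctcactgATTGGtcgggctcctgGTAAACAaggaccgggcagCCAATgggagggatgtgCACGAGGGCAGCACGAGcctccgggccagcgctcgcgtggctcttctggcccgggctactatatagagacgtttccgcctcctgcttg
ARRDC4: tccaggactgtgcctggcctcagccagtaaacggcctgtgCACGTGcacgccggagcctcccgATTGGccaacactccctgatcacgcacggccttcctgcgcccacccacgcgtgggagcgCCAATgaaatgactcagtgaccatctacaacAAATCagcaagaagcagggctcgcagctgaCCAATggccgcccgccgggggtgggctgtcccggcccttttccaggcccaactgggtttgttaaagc

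In the TXNIP window, the response element lay 88 to 72 bases before the start site, and it was flanked further upstream by CCAAT boxes at 105 to 101 and, on the minus strand, at 140 to 136, with the forkhead core between them at 124 to 118. Of 35116 RefSeq promoter windows of this length, 16 (0.0456%) held the response element in this form. The ARRDC4 window held an E-box at 210 to 205 bases, which 6.34% of all windows held, together with 3 CCAAT boxes and 1 GFI1 core. CCAAT boxes were present in 32.0% of all windows and the GFI1 core in 29.9%, so both are common. All 8 members were matched in the RefSeq table, with 11 start sites in all. Of the other members, MLX held an E-box at 50 to 45 bases, and the start site of ARRDC3 inside its annotated gene held a forkhead core on the minus strand at 29 to 23 bases, a motif of 2.98% of all windows. A second TXNIP start site held a GFI1 core on the minus strand at 94 to 90 bases. These matches describe letters and not bound sites.

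Libraries held 17014188 to 20748677 counts, and 6.15% to 7.11% of them came from mitochondrial genes. GFI1 had 4 to 12 counts in the 6 control libraries and 5154 to 12796 in the 6 GFI1 libraries. In CPM (counts scaled to library size), GFI1 was at 286 to 294 in attached GFI1 and at 430 to 706 in floating GFI1 libraries. Attached and floating GFI1 cells thus also differed in the level of GFI1 itself, without overlap. The part of this difference in comparisons that involve both GFI1 groups was not tested. All 6 epithelial keratin and adhesion markers and all 4 detoxification genes known for A549 were detected in every library, but the summed epithelial level was 10386 to 10986 CPM in attached control, 4222 to 4339 in attached GFI1, 6529 to 6938 in floating control and 3039 to 3411 in floating GFI1 libraries. Of these epithelial markers, CDH1 had means of 120 CPM in attached control and 6.45 in attached GFI1 libraries. KRT19 went the other way with GFI1, with means of 1.11 CPM in attached control and 1.97 in attached GFI1 libraries. Its means were 1.90 CPM in floating control and 2.80 in floating GFI1 libraries. The summed detoxification level was 13582 to 14338 CPM in attached control and 6527 to 6750 in attached GFI1 libraries. It was 15548 to 15812.5 CPM in floating control and 5354 to 6273 in floating GFI1 libraries. AKR1C1 of this list went the other way with GFI1, with means of 654 CPM in attached control and 1386 in attached GFI1 libraries. The summed CPM of 6 blood cell markers was 4.45 to 14.0 and that of 5 fibroblast markers 5.46 to 14.2. CD3E and DCN had 0 counts in every library, but CD14 had 73 to 229 and COL1A1 53 to 256 counts per library. PDGFRB had a mean of 0.133 CPM in attached control and 0.236 in floating control libraries. Its mean was 2.22 CPM in attached GFI1 and 2.58 in floating GFI1 libraries. The sum of 4 endothelial markers moved with GFI1, from 0.109 to 0.662 CPM in control to 3.55 to 5.52 CPM in GFI1 libraries, mainly through CDH5, while KDR had 0 counts in every GFI1 library. The part of these shifts in the results that follow was not tested. The floating GFI1 libraries differed most among themselves, with a chi-square per gene of 11.4 between replicates 2 and 3 against 1.99 to 3.60 between replicates of the other 3 groups. In bulk RNA, fewer cells with a transcript and less of it per cell cannot be told apart.

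TXNIP was low in attached control cells and several-fold higher in each of the other 3 groups. Its level was 1.49, 1.68 and 1.55 CPM in the attached control libraries (replicates 1 to 3), from 25, 31 and 27 counts. It was 7.61, 6.51 and 7.11 CPM in the attached GFI1 libraries, 7.47, 6.32 and 9.12 CPM in the floating control libraries, and 7.28, 6.12 and 8.31 CPM in those of floating GFI1 cells. The 3 attached control libraries lay below all 9 others without overlap, and the ranges of those 9 overlapped between groups.

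Group means were 1.57 ± 0.0996 CPM (SD, n = 3) in attached control, 7.07 ± 0.550 in attached GFI1, 7.64 ± 1.41 in floating control and 7.24 ± 1.09 in floating GFI1 cells. Summed over its 3 libraries, attached control held 83 TXNIP counts, or 1.58 CPM with a 95% Poisson interval of 1.26 to 1.95, while attached GFI1 held 418 counts, or 7.04 CPM with an interval of 6.38 to 7.75. These intervals cover counting error only. In the fit, TXNIP was 2.16 ± 0.18 (log2 scale, ± SE) higher with GFI1 in attached cells and 2.27 ± 0.18 higher with suspension in control cells, a fold of 4.46 and of 4.84, and both differences use the same 3 attached control libraries. With GFI1 already expressed, the fitted difference with suspension was 0.04 ± 0.14, with a 95% interval of -0.25 to 0.33. In floating cells, the difference with GFI1 was -0.08 ± 0.14, with an interval of -0.37 to 0.21. The difference of the 2 suspension changes, the measure that chose the gene, was -2.23 ± 0.23, and -2.35 to -2.08 when 1 library was left out. Since TXNIP was chosen by this measure, its intervals and ranges describe the values and are no test of them.

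**Figure D1:**
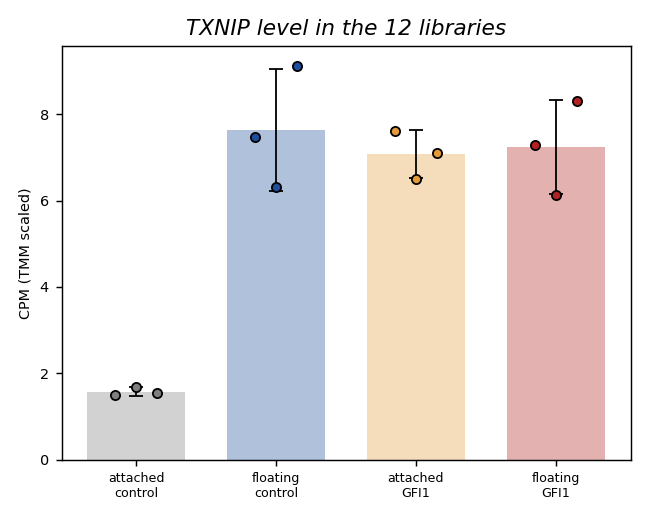
TXNIP level in CPM (y axis, from 0) in the 3 libraries of each of the 4 groups (x axis). Points are libraries, bars are group means and error bars are SDs. The 3 attached control libraries sit between 1.49 and 1.68 CPM, below the other 9, which sit between 6.12 and 9.12 CPM.

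Per kilobase of gene length, TXNIP was a minor member of its family in every group. The summed level of TXNIP and ARRDC1 to ARRDC4 was 32.2 ± 0.341 CPM per kilobase in attached control, 26.5 ± 1.17 in attached GFI1, 55.9 ± 0.330 in floating control and 34.7 ± 0.900 in floating GFI1 cells (SD, n = 3). TXNIP made up 1.35% ± 0.0876 of this sum in attached control cells, 7.36% ± 0.478 in attached GFI1, 3.77% ± 0.708 in floating control and 5.77% ± 1.02 in floating GFI1 cells. Over all libraries, 35.6% of the genes tested had a lower level per length than TXNIP.

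ARRDC3 led the family in attached control cells with 11.5 CPM per kilobase, followed by MLX, ARRDC2 and ARRDC1 at 10.2, 10.1 and 9.90, whose neighbours in this order overlapped between libraries. MLXIP at 7.88, MLXIPL at 2.12, TXNIP at 0.434 and ARRDC4 at 0.185 CPM per kilobase followed without overlap. In floating control cells ARRDC3 stood alone at 27.3 CPM per kilobase, against 14.2 for ARRDC2. In attached GFI1 cells the order was MLX (11.3), ARRDC2 (10.3), ARRDC1 (8.86), ARRDC3 (5.22), MLXIP (4.35), TXNIP (1.95), MLXIPL (1.59) and ARRDC4 (0.208), with no overlap between neighbours. In floating GFI1 cells the first 4, MLX, ARRDC2, ARRDC1 and ARRDC3, overlapped at 11.2 to 10.5 CPM per kilobase, and so did TXNIP at 2.00 and MLXIPL at 1.69.

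Where the other 7 members passed the test, they were lower with GFI1 and higher with suspension. With GFI1 in attached cells, 4 of them fell and none rose at an adjusted p of 0.05 or less in edgeR's quasi-likelihood test, a threshold that 62.3% of all genes tested passed (32.8% as lower). With GFI1 in floating cells, 6 of 7 fell, against 60.4% of all genes passing (31.1% as lower). Since most genes passed in both comparisons, the counts by themselves do not set the members apart. With suspension, 6 of 7 rose in control cells, where 40.1% of all genes passed (19.6% as higher), and 2 of 7 rose in GFI1-expressing cells, where 31.3% passed (15% as higher). Between groups, the CPM of 5, 6, 5 and 5 of the 7 did not overlap in the GFI1 comparisons of attached and floating cells and the suspension comparisons of control and GFI1-expressing cells, against 67%, 64.4%, 49.9% and 41.4% of all genes. The median log2 fold change of the 7 was -0.16, -0.66, 0.49 and 0.11 in these 4 comparisons, against medians over all genes between -0.01 and 0.01. The GFI1 comparisons depend on the scaling, since scaling by library size alone put the median over all genes at 0.14 in both and turned the genes past the threshold from 5258 higher and 5844 lower to 7001 higher and 4375 lower in attached cells, and from 5223 higher and 5547 lower to 6840 higher and 4308 lower in floating cells.

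**Figure D2:**
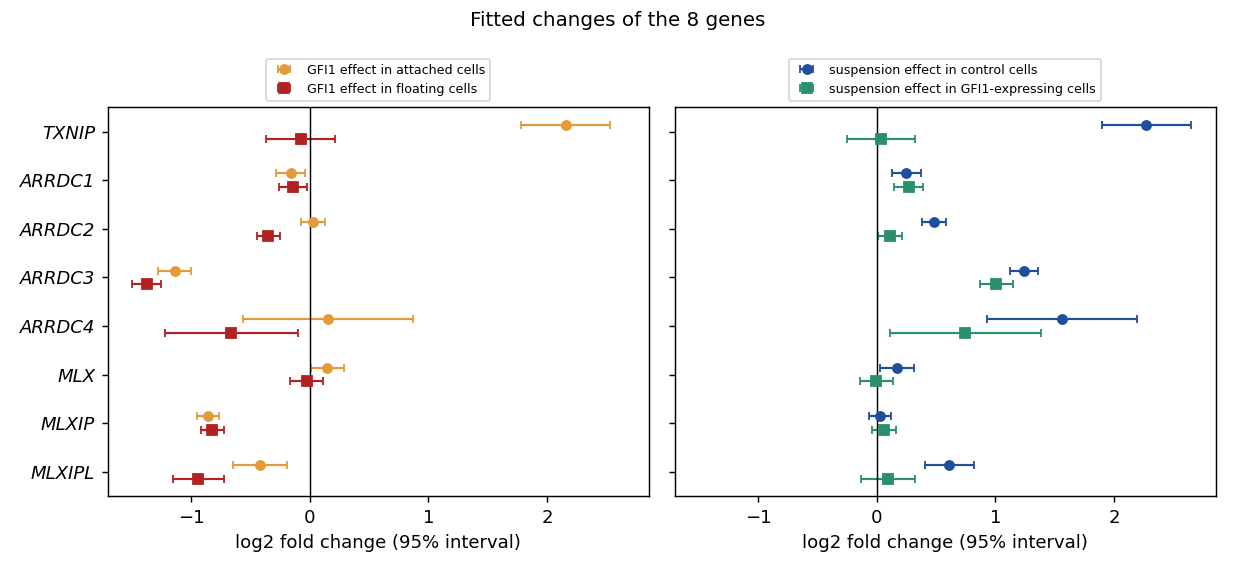
Fitted log2 fold changes (x axis) of the 8 genes (y axis), with 95% intervals as bars. One panel gives the GFI1 effect in attached and floating cells, the other the suspension effect in control and GFI1-expressing cells. TXNIP is far above 0 for GFI1 in attached cells (2.16) and for suspension in control cells (2.27) and near 0 in the other 2 comparisons, while ARRDC3 is below 0 for GFI1 and above 0 for suspension in both backgrounds.

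ARRDC3, an adaptor for receptor and integrin turnover, had the clearest changes of the ARRDC genes, and opposite ones for GFI1 and suspension. Its level was 56.3, 56.8 and 57.5 CPM in the attached control libraries and 23.6, 25.3 and 28.3 CPM in the attached GFI1 libraries. It was 135, 135 and 133 CPM in the floating control libraries and 49.5, 58.1 and 48.2 CPM in the floating GFI1 libraries. Floating control cells had the highest and attached GFI1 cells the lowest level, each without overlap with any other group, while floating GFI1 overlapped attached control. GFI1 lowered ARRDC3 on the log2 scale, at -1.14 ± 0.07 in the attached state (adjusted p = 1.02e-13) and at -1.38 ± 0.06 in the floating state (adjusted p = 1.54e-16). Suspension raised it by 1.24 ± 0.06 in control cells (adjusted p = 1.32e-14) and by 1.01 ± 0.07 in GFI1-expressing cells (adjusted p = 1.94e-11). All 4 calls held in every alternative. An antisense gene, ARRDC3-AS1, overlaps 3011 bases of ARRDC3 but had only 7 to 36 counts per library, and the strand setting of the counting is not given in the sources used here.

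ARRDC2, another PPxY adaptor, rose with suspension in control cells and fell with GFI1 in floating cells. Its level was 48.7, 45.1 and 47.2 CPM in attached control, 48.5, 47.0 and 47.8 CPM in attached GFI1, 65.2, 66.0 and 66.1 CPM in floating control and 52.9, 51.9 and 50.1 CPM in floating GFI1 libraries. Both attached groups overlapped, and floating control lay above all other libraries. Suspension raised ARRDC2 by 0.49 ± 0.05 on the log2 scale in control cells (adjusted p = 1.02e-08) and gave 0.11 ± 0.05 in GFI1-expressing cells (adjusted p = 0.0789). GFI1 lowered it, at -0.35 ± 0.05 in floating cells (adjusted p = 6.35e-07) and gave 0.02 ± 0.05 in attached cells (adjusted p = 0.706). Scaled by library size alone, the value in attached cells became 0.17 with an adjusted p of 0.00431, where the median over all genes was 0.14.

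ARRDC4, the closest relative of TXNIP as a target of the MLX factors, was near the lower end of detection, with 6 to 44 counts per library. It had 6, 17 and 17 counts (0.357, 0.923 and 0.976 CPM) in attached control, 16, 16 and 18 counts (0.901, 0.739 and 0.901 CPM) in attached GFI1, 44, 39 and 32 counts (2.61, 2.35 and 1.81 CPM) in floating control and 22, 30 and 28 counts (1.21, 1.65 and 1.39 CPM) in floating GFI1 libraries. Both attached groups overlapped, and floating control was above floating GFI1, which was above both attached groups. Suspension raised ARRDC4 in control cells by 1.56 ± 0.30 on the log2 scale (adjusted p = 0.000174), and in GFI1-expressing cells the difference was 0.75 ± 0.31 (adjusted p = 0.0693). In attached cells, where TXNIP was 4.46-fold higher with GFI1, ARRDC4 differed by 0.15 ± 0.35 with a 95% interval of -0.56 to 0.87 (adjusted p = 0.722). In floating cells GFI1 lowered it, at -0.66 ± 0.27 (adjusted p = 0.0382), a call that was lost without floating control replicate 1 (adjusted p = 0.141), floating control replicate 2 (0.0880), floating GFI1 replicate 1 (0.125) or floating GFI1 replicate 3 (0.0742). The suspension difference in GFI1-expressing cells passed without attached control replicate 1 (adjusted p = 0.0438).

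ARRDC1, which is known for the budding of small vesicles at the plasma membrane, moved by at most 1.21-fold in every comparison. Its level was 36.4, 38.7 and 38.5 CPM in attached control, 34.3, 31.1 and 36.2 CPM in attached GFI1, 46.2, 45.2 and 43.6 CPM in floating control and 42.5, 39.8 and 40.1 CPM in floating GFI1 libraries. The groups did not overlap, with floating above attached and control above GFI1. Suspension raised it by 0.25 ± 0.06 on the log2 scale in control cells (adjusted p = 0.00147) and by 0.27 ± 0.06 in GFI1-expressing cells (adjusted p = 0.00098). GFI1 lowered it in the attached state, at -0.16 ± 0.06 (adjusted p = 0.0224), and in the floating state, at -0.14 ± 0.06 (adjusted p = 0.0400). Scaled by library size alone, these 2 values came to -0.02 (adjusted p = 0.839) and -0.01 (adjusted p = 0.867). The call in attached cells was also lost without attached control replicate 2 or 3, attached GFI1 replicate 2 or floating GFI1 replicate 1 (adjusted p = 0.0699, 0.0615, 0.165 and 0.0534), and the call in floating cells without attached GFI1 replicate 1, floating control replicate 1 or 2, or floating GFI1 replicate 2 or 3 (adjusted p = 0.0552, 0.122, 0.0807, 0.132 and 0.0962). A gene on the same strand, AL590627.2, overlaps 9617 bases of ARRDC1 and had 0 counts in every library.

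**Figure D3:**
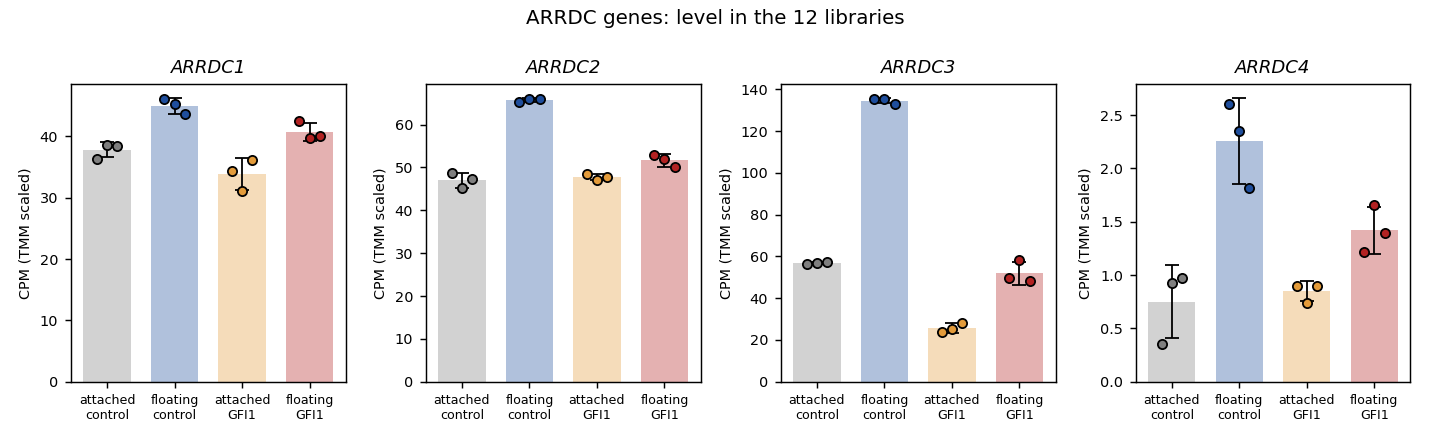
Levels of ARRDC1 to ARRDC4 in CPM (y axes, from 0, with a scale for each gene) in the 3 libraries of each group (x axes). Points are libraries, bars are group means and error bars are SDs. Floating control is the highest group for all 4 genes, with means of 45.0, 65.8, 134.6 and 2.26 CPM.

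Of the factors that drive TXNIP, MLXIP fell with GFI1 in both states and did not respond detectably to suspension. MLXIP was at 107, 113 and 109 CPM in attached control and 117, 113 and 105 CPM in floating control libraries. With GFI1 it was at 60.5, 59.6 and 61.2 CPM in attached and 63.2, 61.6 and 64.1 CPM in floating libraries. Control and GFI1 libraries did not overlap, and floating GFI1 lay just above attached GFI1. GFI1 gave -0.86 ± 0.05 on the log2 scale when cells were attached (adjusted p = 2.25e-14) and -0.82 ± 0.05 when they floated (adjusted p = 5.33e-14), while suspension gave 0.02 ± 0.05 (adjusted p = 0.707) and 0.06 ± 0.05 (adjusted p = 0.391), with 95% intervals of -0.07 to 0.12 and of -0.04 to 0.16. In attached cells, TXNIP was higher with GFI1 where MLXIP was lower. These are RNA levels, and a link between them was not tested.

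MLXIPL, the partner best known from liver and fat, was highest in floating control cells. Its level was 10.1, 10.2 and 10.4 CPM in attached control, 7.77, 7.11 and 8.06 CPM in attached GFI1, 15.2, 16.4 and 15.4 CPM in floating control and 9.49, 7.11 and 7.86 CPM in floating GFI1 libraries. Both GFI1 groups overlapped each other and lay below both control groups. GFI1 lowered MLXIPL on the log2 scale, at -0.42 ± 0.11 in the attached (adjusted p = 0.00162) and at -0.94 ± 0.10 in the floating state (adjusted p = 1.77e-08). Suspension raised it by 0.61 ± 0.10 in control cells (adjusted p = 2.26e-05) and gave 0.09 ± 0.11 in GFI1-expressing cells (adjusted p = 0.582). A sense intronic gene within MLXIPL, AC005089.1, had 4 to 18 counts.

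MLX, the obligate partner of both factors, passed the test in 1 of the 4 comparisons. It was at 43.8, 46.0 and 40.0 CPM in attached control, 47.9, 47.6 and 48.2 CPM in attached GFI1, 47.1, 54.7 and 44.8 CPM in floating control and 45.1, 51.4 and 47.0 CPM in floating GFI1 libraries. Attached control lay below attached GFI1 without overlap, and the other neighbouring groups overlapped. Its 1 call, a rise with suspension in control cells of 0.17 ± 0.07 on the log2 scale (adjusted p = 0.0476), came with overlapping groups and was lost without any 1 of 7 libraries, namely attached control replicate 1 or 3, attached GFI1 replicate 1, 2 or 3, or floating control replicate 1 or 2 (adjusted p = 0.0816, 0.249, 0.0595, 0.0576, 0.0617, 0.0534 and 0.382). With GFI1 in attached cells the value was 0.15 ± 0.07 (adjusted p = 0.0640), and it passed with the other scalings and without attached control replicate 2, floating control replicate 2, or floating GFI1 replicate 1 or 2 (adjusted p = 0.0361, 0.0427, 0.0312 and 0.0190). In the other 2 comparisons it was -0.03 ± 0.07 (adjusted p = 0.739) and -0.002 ± 0.07 (adjusted p = 0.987). PSMC3IP lies antisense to MLX over 925 bases and had 94 to 230 counts against 697 to 1032 for MLX. How much this overlap affects the MLX counts is not known, since the strand setting of the counting is not given.

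**Figure D4:**
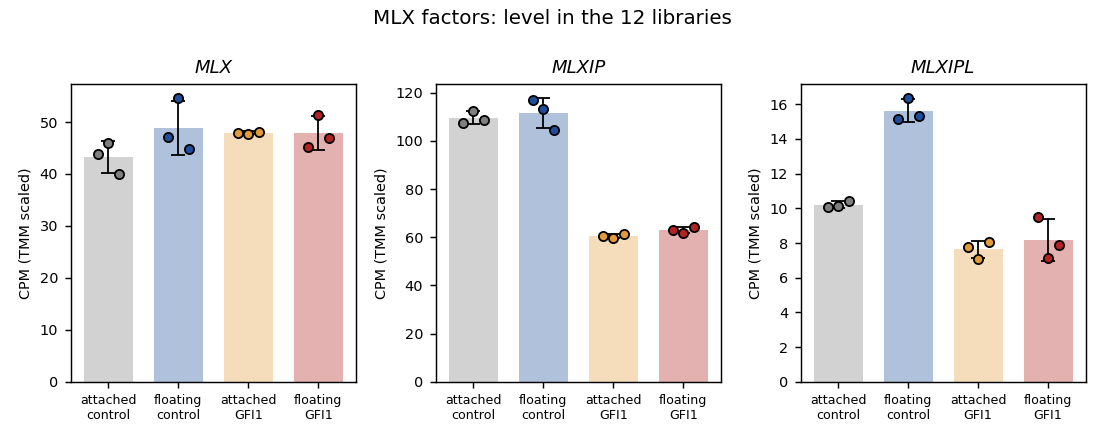
Levels of MLX, MLXIP and MLXIPL in CPM (y axes, from 0, with a scale for each gene) in the 3 libraries of each group (x axes). Points are libraries, bars are group means and error bars are SDs. MLXIP sits between 59.6 and 64.1 CPM in the GFI1 libraries and between 105 and 117 CPM in the control libraries, whether attached or floating.

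The difference between the suspension change in GFI1-expressing and in control cells, which was not tested for any member, was -2.23 ± 0.23 on the log2 scale for TXNIP, -0.82 ± 0.44 for ARRDC4, -0.52 ± 0.15 for MLXIPL, -0.37 ± 0.07 for ARRDC2 and -0.23 ± 0.09 for ARRDC3. It was -0.17 ± 0.10 for MLX, 0.02 ± 0.08 for ARRDC1 and 0.03 ± 0.07 for MLXIP. Of all genes tested, 10.8% passed the test of this difference, 4.76% as higher and 6.01% as lower. Across the 12 libraries, the log2 CPM of TXNIP had a Pearson r of 0.58 with ARRDC4, 0.54 with MLX, 0.49 with ARRDC2, 0.21 with ARRDC1, 0.02 with ARRDC3, -0.01 with MLXIPL and -0.52 with MLXIP. ARRDC3 had an r of 0.90 with MLXIPL and of 0.89 with ARRDC1. These values describe 4 groups of libraries and not independent samples, and they carry no test.

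Among 11885 protein-coding genes whose mean log2 CPM was 1 or more, the 5 whose levels followed TXNIP most closely over the 12 libraries were ALDH3A1 (Pearson r = 0.98), an aldehyde dehydrogenase, CEACAM1 (0.98), a cell adhesion molecule, DUSP4 (0.97), a phosphatase of MAP kinases, SMIM6 (0.97) and FAM214A (0.96). ALDH3A1 stood at 2583 ± 31.9 CPM in attached control, 4955 ± 123 in attached GFI1, 5017 ± 87.7 in floating control and 5317 ± 279 in floating GFI1 cells. CEACAM1 stood at 7.43 ± 0.384, 18.8 ± 2.39, 19.9 ± 1.02 and 20.7 ± 3.01 CPM in the same order. The 3 with the most opposite pattern were PRICKLE1 (-0.97), a planar polarity gene, at 5.56 ± 0.434 CPM in attached control and 1.34 ± 0.135, 1.48 ± 0.0888 and 1.39 ± 0.360 in the other groups, SLC3A2 (-0.97), the heavy chain of amino acid transporters, and LRRC47 (-0.96). The likeness rests on the 3 attached control libraries standing apart from the other 9, and none of the 8 genes was among the leading 8 by Spearman's coefficient.

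Genes around these members were followed in 8 lists, of 106 genes in all, and 17 of them had too few counts for the fit. Of the MYC, MAX and MLX partner network, whose proteins share partners with MLX, 9 genes were tested. With GFI1, 7 rose and 1 fell in attached and likewise 7 and 1 in floating cells, against 62.3% and 60.4% of all genes past the threshold. The 1 that fell was MYC, the growth-promoting member, at 142 ± 7.81 CPM in attached control, 62.6 ± 0.577 in attached GFI1, 116 ± 5.80 in floating control and 38.6 ± 2.14 in floating GFI1 cells, or -1.18 ± 0.05 for attached and -1.59 ± 0.05 for floating cells on the log2 scale. Antagonists of MYC that rose included MXD1 by 1.67 ± 0.14 and 0.79 ± 0.12, MXD4 by 0.82 ± 0.05 and 0.34 ± 0.05, MXI1 by 0.88 ± 0.11 and 0.51 ± 0.09 and MNT by 0.19 ± 0.05 and 0.23 ± 0.05. The shared partner MAX rose by 0.50 ± 0.06 and 0.27 ± 0.06. MXD3, another antagonist, stood at -0.008 ± 0.07 (adjusted p = 0.930) and -0.12 ± 0.07 (adjusted p = 0.152). MYCL, a MYC paralog, rose by 0.78 ± 0.21 and 1.72 ± 0.21. Suspension raised 5 and lowered 1 of the 9 in control cells, against 40.1% of all genes passing, with the lowest adjusted p for MXI1 at 1.45 ± 0.10 and MYC at -0.30 ± 0.05, and raised 4 and lowered 2 in GFI1-expressing cells, against 31.3%, with the lowest adjusted p for MXI1 at 1.08 ± 0.09 and MYC at -0.70 ± 0.06.

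Of 21 glucose-responsive target genes of MLXIP and MLXIPL, 13 were tested, most of the others being liver genes with at most 9 counts in any library. GFI1 raised 4 and lowered 8 of the 13 in attached cells and raised 3 and lowered 7 in floating cells, with medians of -0.65 and -0.33 on the log2 scale. These are shares of 92.3% and 76.9%, against 62.3% and 60.4% of all genes. Among the genes of fatty acid synthesis, those that fell included ACLY at -1.42 ± 0.05 and -1.31 ± 0.05, ACACA at -0.97 ± 0.05 and -0.84 ± 0.05, FASN at -0.65 ± 0.04 and -0.36 ± 0.04, and SCD, a desaturase, at -0.94 ± 0.05 and -0.33 ± 0.05. ACACB, an acetyl-CoA carboxylase like ACACA, rose by 0.67 ± 0.08 and 0.66 ± 0.08. KLF10, a transcription factor, rose by 0.47 ± 0.05 and 0.57 ± 0.05. Suspension changed fewer of them, with 1 higher and 3 lower in control and 2 higher and 2 lower in GFI1-expressing cells, a share of 30.8% in both against 40.1% and 31.3% of all genes. In GFI1-expressing cells the 4 called genes became 2 without attached GFI1 replicate 1 or 3. SCD rose by 0.87 ± 0.05 and by 1.48 ± 0.05, and ACLY fell, at -0.29 ± 0.05 and -0.18 ± 0.05. FASN fell, at -0.32 ± 0.04 in control cells. Of the 13 tested target genes, the 1 that rose with suspension in control cells was SCD, which fell with GFI1 in attached cells. The list leaves out the members TXNIP and ARRDC4, and ARRDC4 also rose with suspension in control cells, by 1.56 ± 0.30. Whether any of these changes came through the MLX factors was not tested.

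The thioredoxin system holds the binding partner of TXNIP, and 13 of its 14 genes were tested. GFI1 raised 2 and lowered 8 of them in attached cells and raised 3 and lowered 9 in floating cells, or 76.9% and 92.3%, where 62.3% and 60.4% of all genes passed. TXN, thioredoxin itself, rose by 0.51 ± 0.05 and 0.27 ± 0.05, and SRXN1, which repairs overoxidized peroxiredoxins, by 0.91 ± 0.08 and 0.92 ± 0.08. PRDX1, a peroxiredoxin, fell, at -0.80 ± 0.04 and -1.10 ± 0.04. TXNRD1, the reductase of thioredoxin, fell, at -0.39 ± 0.05 in floating cells and was at -0.07 ± 0.05 in attached cells (adjusted p = 0.219). Suspension raised 1 and lowered 3 of the 13 in control cells and lowered 7 in GFI1-expressing cells, or 30.8% and 53.8% against 40.1% and 31.3% of all genes. TXNRD1 fell, at -0.45 ± 0.05 in GFI1-expressing cells. NXN, a thioredoxin-like oxidoreductase, fell, at -1.34 ± 0.06 in control cells. The 1 that rose was TXN at 0.18 ± 0.05 (adjusted p = 0.00989), a call lost without attached control replicate 2 (adjusted p = 0.117) or floating control replicate 2 (0.0770). The 4 called genes in control cells became 2 without attached control replicate 3 or floating control replicate 3, and the 7 in GFI1-expressing cells became 4 without attached GFI1 replicate 1, 2 or 3.

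Of the genes of glucose transport and phosphorylation, 11 were tested. GFI1 raised 3 and lowered 6 in attached cells and raised 2 and lowered 5 in floating cells. Of all genes, 62.3% and 60.4% passed, and the share of this list was 81.8% and 63.6%, the latter near that of all genes. SLC2A1, which encodes the transporter GLUT1, was at 196 ± 4.33 CPM in attached control, 439 ± 12.1 in attached GFI1, 302 ± 8.89 in floating control and 660 ± 135 in floating GFI1 cells, and so rose with GFI1 by 1.16 ± 0.08 and 1.13 ± 0.08 and with suspension by 0.62 ± 0.08 and 0.59 ± 0.08. HK2, a hexokinase, was at 3.85 ± 0.0959, 0.493 ± 0.257, 29.7 ± 1.03 and 9.80 ± 5.98 CPM in the same order, so it fell with GFI1, at -2.92 ± 0.47 and -1.61 ± 0.21 and rose with suspension by 2.94 ± 0.24 and 4.25 ± 0.39. HKDC1, a hexokinase domain protein, fell with GFI1, at -3.69 ± 0.07 and -4.53 ± 0.09 and with suspension at -0.64 ± 0.06 and -1.48 ± 0.13. SLC2A13, a myo-inositol transporter, rose with GFI1 by 2.25 ± 0.07 and 1.90 ± 0.06. Suspension raised 6 and lowered 4 of the 11 in control cells, among them HK1 at 0.65 ± 0.04, and raised 4 and lowered 3 in GFI1-expressing cells, where SLC2A3, which encodes GLUT3, rose by 2.40 ± 0.21 and had the lowest adjusted p of those that rose. The shares were 90.9% and 63.6%, against 40.1% and 31.3% of all genes. SLC2A3 varied widely in floating GFI1 cells, at 147 ± 75.3 CPM, and its rise there ran from 1.90 to 2.68 with 1 library left out. With GFI1 in attached cells SLC2A3 fell, at -1.44 ± 0.21.

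Of the ubiquitin ligases of the NEDD4 family, to which the ARRDC proteins bind, all 9 were tested. GFI1 raised 1 and lowered 6 in attached cells and raised 1 and lowered 7 in floating cells, with medians of -0.46 and -0.48. These ligases passed at 77.8% and 88.9%, all genes at 62.3% (32.8% as lower) and 60.4% (31.1% as lower). NEDD4L was at 89.9 ± 2.65 CPM in attached control and 13.0 ± 0.881 in attached GFI1 cells and fell, at -2.79 ± 0.07 in attached and -2.56 ± 0.07 in floating cells, and NEDD4 fell, at -0.84 ± 0.06 and -1.24 ± 0.06. The gene that rose was WWP2, at 0.35 ± 0.05 and 0.27 ± 0.05. ITCH, which ubiquitinates TXNIP, was at -0.20 ± 0.06 in attached cells (adjusted p = 0.00408), a value of -0.05 when scaled by library size alone (adjusted p = 0.414). In floating cells it was at -0.14 ± 0.06 (adjusted p = 0.0362), and this call was lost without floating control replicate 1 or 2 or floating GFI1 replicate 1 or 3 (adjusted p = 0.107, 0.162, 0.0910 and 0.256, with -0.077 without the last). It was also lost with library size alone, with at least 10 counts in every library and with 2 groups only (adjusted p = 0.838, 0.0650 and 0.0728). Suspension raised 1 and lowered 2 of the 9 in control cells, namely WWP1 at 0.40 ± 0.05 and, among those that fell, NEDD4L at -0.31 ± 0.05, and it raised 1 and lowered 3 in GFI1-expressing cells, namely WWP1 at 0.16 ± 0.05 and, among those that fell, NEDD4 at -0.38 ± 0.07. Those shares, 33.3% and 44.4%, stood beside 40.1% and 31.3% of all genes.

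Among 7 other genes with an arrestin fold that could be tested, ARRB1, which encodes beta-arrestin 1, rose with GFI1 by 1.47 ± 0.07 and 1.21 ± 0.07 and with suspension in control cells by 0.42 ± 0.08. ARRB2, which encodes beta-arrestin 2, fell with suspension, at -0.48 ± 0.06 in control and -0.32 ± 0.06 in GFI1-expressing cells. In this list 3 genes rose and 1 fell with GFI1 in either state, a share of 57.1%, below the 62.3% and 60.4% of all genes. VPS26A, a retromer subunit, was the 1 that fell, at -0.14 ± 0.04 and -0.13 ± 0.04, but stood at 0.00 in both when scaled by library size alone. Its call in floating cells (adjusted p = 0.0158) was lost without floating control replicate 3 or floating GFI1 replicate 1 or 2 (adjusted p = 0.123, 0.0678 and 0.0712). With suspension 3 rose and 2 fell in control cells (71.4%, against 40.1% of all genes), and 1 fell in GFI1-expressing cells (14.3%, against 31.3%), a count of 2 called genes without attached GFI1 replicate 3, floating control replicate 2 or 3, or floating GFI1 replicate 3. ARRDC5, the remaining member of the alpha-arrestin family, had at most 1 count in any library.

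FOXO factors and glucocorticoids are known to regulate TXNIP in other settings, and their genes were followed for that reason. Of 15 FOXO genes and responsive genes, GFI1 raised 11 and lowered 2 in attached cells and raised 9 and lowered 2 in floating cells, and suspension raised 12 in control and 11 in GFI1-expressing cells and lowered none, with medians of 0.74 and 0.41 on the log2 scale. The list passed at 86.7% and 73.3% with GFI1 and at 80.0% and 73.3% with suspension, all genes at 62.3%, 60.4%, 40.1% and 31.3%. FOXO1 rose with GFI1 by 1.09 ± 0.10 and 1.15 ± 0.09, FOXO3 by 0.38 ± 0.07 and 0.26 ± 0.07. CITED2, a transcriptional coregulator, rose in all 4 comparisons by 2.14 ± 0.13, 1.26 ± 0.10, 2.07 ± 0.13 and 1.19 ± 0.10, as did FBXO32, a muscle ubiquitin ligase subunit, by 2.07 ± 0.13 with GFI1 in attached cells and by 1.04 ± 0.14 and 0.47 ± 0.10 with suspension, and 2.83-fold with GFI1 in floating cells. The 2 that fell with GFI1 were PDK4, a pyruvate dehydrogenase kinase, at -1.92 ± 0.06 and -2.13 ± 0.06, and IGFBP1, a secreted binding protein, at -4.95 ± 0.20 and -5.55 ± 0.12. Both rose with suspension, PDK4 by 0.74 ± 0.05 and 0.52 ± 0.06 and IGFBP1 by 2.76 ± 0.09 and 2.16 ± 0.31. IGFBP1 was near the lower end of detection with GFI1, at 0.323 ± 0.0859 CPM in attached and 1.47 ± 0.553 CPM in floating cells.

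Of 12 tested genes of the glucocorticoid list, GFI1 raised 9 and lowered 3 in either state, where 62.3% and 60.4% of all genes passed. NR3C1, the receptor, rose by 0.39 ± 0.04 and 0.35 ± 0.04, SGK1, a kinase, by 2.08 ± 0.07 and 2.57 ± 0.06, KLF9 by 1.29 ± 0.07 and 0.72 ± 0.07 and FKBP5, a chaperone of the receptor, by 0.40 ± 0.05 and 0.27 ± 0.06. BIRC3, an inhibitor of apoptosis, fell, at -1.14 ± 0.07 and -1.32 ± 0.07. ERRFI1, a feedback inhibitor of the EGF receptor, fell, at -1.05 ± 0.12 and -1.28 ± 0.12. Suspension raised 5 and lowered 1 of the 12 in control cells and raised 5 and lowered 4 in GFI1-expressing cells, beside 40.1% and 31.3% of all genes passing. TSC22D3, a classical glucocorticoid target, rose by 0.88 ± 0.13 and 1.75 ± 0.11, and ERRFI1 by 1.06 ± 0.12 and 0.83 ± 0.12, the latter 0.54 without floating GFI1 replicate 2. The 1 that fell in control cells was FKBP5, at -0.17 ± 0.06 (adjusted p = 0.0148). This call was lost without attached control replicate 2 (adjusted p = 0.0890) or floating control replicate 2 (0.0914). Among those that fell in GFI1-expressing cells were KLF9, at -0.40 ± 0.06, and FKBP5, at -0.30.

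**Figure D5:**
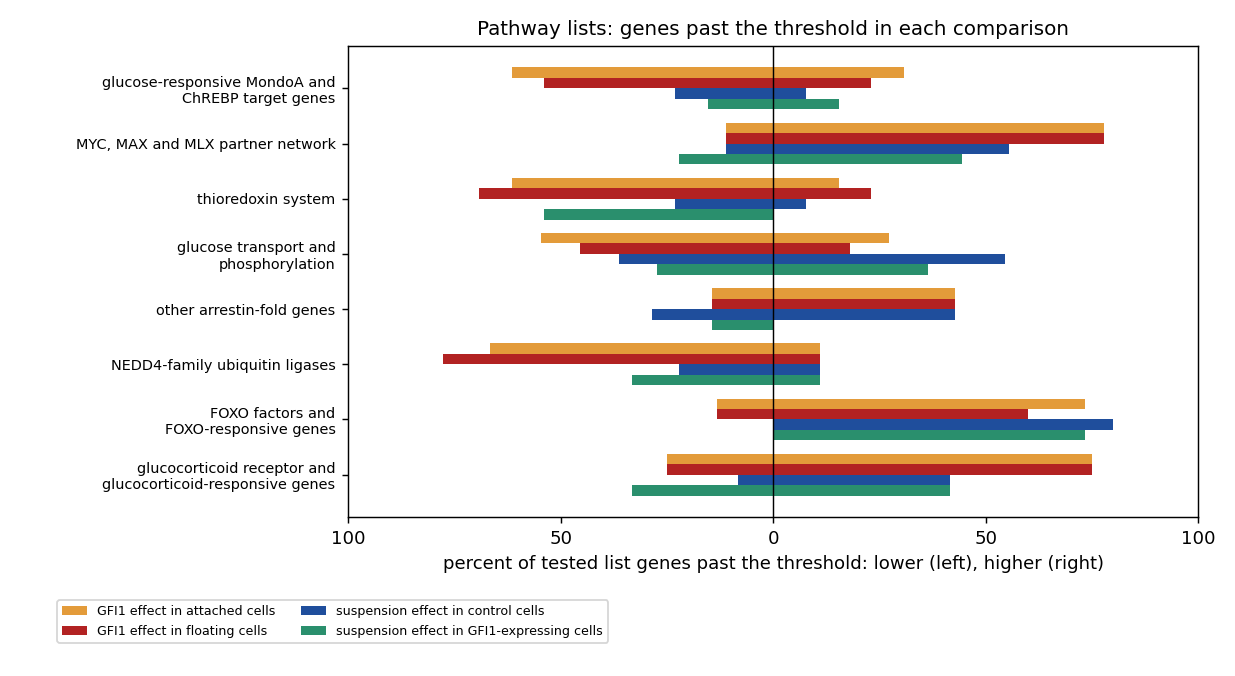
Share of the tested genes of each list (y axis) that passed the threshold as lower (bars to the left) or higher (bars to the right), in percent of the tested list genes (x axis), for the 4 comparisons. The FOXO list has 12 of 15 genes higher with suspension in control cells and 0 lower, and the NEDD4 family has 7 of 9 lower with GFI1 in floating cells.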

How the data were processed

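Poly-A selected RNA was sequenced on an Illumina NovaSeq by the authors, and the deposited values are raw counts per gene for the 12 libraries. Sorting of GFP-positive cells is described for lentivirus-infected cells, and the study's methods do not say whether control cells were sorted. The study's methods name FastQC, Hisat2 and featureCounts on GRCh38, whereas the submitters' processing notes name Bowtie2, HTSeq and hg38. The annotation release and the strand setting are not given in the sources used here.

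Groups came from the labels. Low-count genes were dropped with filterByExpr of edgeR 4.0.16 in R 4.3.3 (minimum count 10, minimum total 15), and the 17829 genes left held at least 99.8% of each library's counts. Libraries were scaled by TMM, with factors of 0.939 to 0.971 in control and 1.04 to 1.06 in GFI1 libraries. All 12 libraries entered a single quasi-likelihood fit of the 4 group means, with a biological coefficient of variation of 4.86%, and its contrasts were tested two-sided with Benjamini-Hochberg adjustment over all 17829 genes at 0.05. SE is the log2 fold change divided by the square root of F. CPM values use TMM, and log2 CPM for correlations a prior count of 2. Intervals on summed counts are exact Poisson intervals. The scripts were tested on simulated data.

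The members and lists were chosen with earlier results of these data known. TXNIP received no p value, and no member received one for the interaction of GFI1 and suspension. Besides members and GFI1, the text names the 5 genes most and 3 least correlated with TXNIP, in each list and pairwise comparison the called gene of lowest adjusted p that was higher and that was lower, and list genes that bear directly on a member. ACACB and MXD3 were added after their values were seen, as exceptions within their lists. Alternatives were RLE scaling, library size alone, no filter, at least 10 counts in every library, a replicate block, 2 groups only, DESeq2 1.42.0 and leaving out each library. Promoters came from RefSeq (GRCh38.p14).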

Additional observations from a re-analysis of the deposited data

Results flagged for a closer look

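Among the named genes around the members, 21 had a suspension change that differed between GFI1-expressing and control cells by the interaction term of the edgeR fit, at an adjusted p of 0.05 or less, which 10.8% of all genes reached. Many of these genes were named for a low adjusted p in the pairwise comparisons, so their count cannot be set against that share. By whole list, the share of tested genes that passed ran from 0% (other arrestin-fold genes) to 45.5% (glucose transport and phosphorylation). The difference of the 2 suspension changes, as GFI1-expressing minus control on the log2 scale, was negative for MYC (-0.40, adjusted p = 0.000487), MXD1 (-0.88, 0.00175) and MXD4 (-0.48, 4.36e-05) of the MYC network, for TXN (-0.24, 0.0392), TXNRD1 (-0.33, 0.00112) and PRDX1 (-0.30, 0.00132) of the thioredoxin system, and for SLC2A13 (-0.36, 0.0175), HK1 (-0.93, 7.16e-11) and HKDC1 (-0.85, 0.000156) of glucose transport and phosphorylation. It was also negative for the ligases NEDD4 (-0.40, 0.00332) and WWP1 (-0.24, 0.0187), for FBXO32 (-0.57, 0.0371) and CITED2 (-0.88, 0.000544), and for KLF9 (-0.57, 0.000282).

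It was positive for FASN (0.29, 0.00129) and SCD (0.61, 1.23e-06) of fatty acid synthesis, for MYCL (0.94, 0.0485), NXN (1.01, 1.31e-08) and SLC2A3 (1.15, 0.00737), and for TSC22D3 (0.87, 0.00115) and SGK1 (0.50, 0.000889). NXN fell, at -1.34 ± 0.06 with suspension in control and -0.33 ± 0.06 in GFI1-expressing cells, and HK1 rose by 0.65 ± 0.04 in control and fell, at -0.27 ± 0.04 in GFI1-expressing cells. The calls of MYCL, FBXO32, TXN, SLC2A13 and WWP1 were lost when 1 library was left out, for 10, 8, 6, 4 and 3 of the 12 libraries, with adjusted p up to 0.132, 0.114, 0.144, 0.0866 and 0.0773. The MYCL call was also lost with RLE scaling, library size alone, no filter, the replicate block and DESeq2 (adjusted p = 0.0505, 0.0541, 0.0536, 0.0590 and 0.0748), that of WWP1 without a filter (0.0960) and that of SLC2A3 with DESeq2 (0.0654). Without floating GFI1 replicate 2 the SLC2A3 difference was 0.64, still past the threshold. No group had enough libraries for a check of single outlying samples.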

How the results depend on the processing

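The calls of ARRDC3 in all 4 comparisons, of MLXIP and MLXIPL with GFI1, of ARRDC1, ARRDC2, ARRDC4 and MLXIPL with suspension in control cells, of ARRDC1 with suspension in GFI1-expressing cells and of ARRDC2 with GFI1 in floating cells kept their side of the threshold in every alternative that fitted the gene. ARRDC4 was not fitted where at least 10 counts were asked of every library. TXNIP differed from attached control by 2.11 to 2.30 with GFI1 and by 2.12 to 2.39 with suspension over all alternatives. These ranges describe a gene chosen by its pattern and are no test of it. The GFI1 call of ARRDC1 was lost with library size alone and with at least 10 counts in every library in both states (adjusted p = 0.839 and 0.0517 in attached, 0.867 and 0.0706 in floating cells), with DESeq2 in both (0.0582 and 0.0691) and without a filter in floating cells (0.0837). The ARRDC4 call with GFI1 in floating cells was lost with library size alone, no filter and DESeq2 (0.0906, 0.0506 and 0.0693), and the MLX call with suspension with no filter and DESeq2 (0.0535 and 0.0565). MLX passed with GFI1 in attached cells with RLE, library size alone, the count minimum, 2 groups only and the replicate block (0.0494, 0.000338, 0.0279, 0.0264 and 0.0331), and ARRDC2 with suspension in GFI1-expressing cells with the count minimum (0.0494). Some values changed sign, namely the uncalled MLX with GFI1 in floating cells (0.10 with library size alone) and with suspension in GFI1-expressing cells (0.00040 with library size alone, 0.0050 without a filter, 0.0032 with the count minimum), and VPS26A with GFI1, a call in both states (0.0037 in attached and 0.0003 in floating cells with library size alone). With 1 library left out, ARRDC2 and ARRDC4 with GFI1 in attached cells ran from -0.0095 to 0.046 and from -0.17 to 0.37, MLX with GFI1 in floating cells from -0.089 to 0.058, MLXIP with suspension in control cells from -0.013 to 0.068, and MLX and MLXIPL with suspension in GFI1-expressing cells from -0.070 to 0.027 and from -0.037 to 0.17. Of the 8 genes most and least like TXNIP, 4 were kept with library size alone and 0 with Spearman's coefficient. Same-numbered libraries did not deviate together (correlations of -0.02 to 0.01, and 3 of 12 libraries closest to their own number), and a replicate block changed no other member's call. Among the lists, the called genes of the thioredoxin system with GFI1 in attached cells numbered 10, and 6 with library size alone, those of the MLXIP and MLXIPL targets with suspension in control cells 4, and 7 with 2 groups only, and those of the other arrestin-fold genes with suspension in GFI1-expressing cells 1, and 2 with no filter or 2 groups only. The cause of these changes was not tested. Low counts limit ARRDC4 most, with 6 to 44 per library.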
